A study of Mus musculus with 3 samples.

Results

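The G1 cyclins, the CDKs they bind and the inhibitors of those kinases were described across 3 RNA-Seq libraries of mouse monocytes and monocyte-derived antigen-presenting cells (APCs). The 10 genes were listed by name: the D-type cyclins Ccnd1, Ccnd2 and Ccnd3, the kinases Cdk2, Cdk4 and Cdk6, the CIP/KIP inhibitors Cdkn1a and Cdkn1b, and the INK4 inhibitors Cdkn2c and Cdkn2d. All 10 were among the 22238 genes listed in every library.

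Experimental autoimmune encephalomyelitis (EAE), a mouse model of multiple sclerosis, was induced in C57BL/6J females, labelled WT in all 3 libraries, aged 10 to 12 weeks with a myelin oligodendrocyte glycoprotein (MOG) peptide in complete Freund's adjuvant and 250 ng of pertussis toxin per injection. Cells were sorted at days 14 to 15, so all 3 populations came from immunized mice. Bone marrow (BM) monocytes, sorted as CD45+ CD11b+ Ly6Chi cells without Ly6G or CD11c, were pooled from 13 mice in 2 experiments. Spinal cord (SC) monocytes (CD45+ CD11b+ CD64+, with high Ly6C and no Ly6G) and monocyte-derived APCs (the same gate with low or no Ly6C) were each pooled from 18 mice in 3 experiments. One label of the APC library names the bone marrow as its source, whereas its title and tissue label name the spinal cord.

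Each population was 1 library, so there is no replicate check, no p-value is given, and every interval covers counting error only, with PCR copies counted as if they were independent. The libraries held 33280643 estimated reads in BM monocytes, 27283795 in SC monocytes and 28209589 in APCs. TPM, a length-corrected share of transcripts, was rescaled to the same sum over the common genes, and its 95% interval is a Wilson interval of the gene's share of reads. A log2 fold change compares the reads of 2 libraries, with a 98% interval, and a gene was called higher or lower where the whole interval passed a 2-fold change and its TPM exceeded 3 in either library. Genes over that TPM in either library are named active below. The monocyte markers Ly6c2, Ccr2, Csf1r, Fcgr1, Itgam and Ptprc were all above a TPM of 3 in every library, with summed TPM of 8197, 5649 and 3182 in BM monocytes, SC monocytes and APCs. In a bulk library, fewer cells of a type and less RNA per cell cannot be told apart.

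A cell commits to division in G1. D-type cyclins, made when growth signals arrive, bind CDK4 or CDK6 and start the phosphorylation of the RB protein, which then releases E2F transcription factors. Cyclin E with CDK2 completes that step. INK4 proteins bind CDK4 and CDK6 and keep D-type cyclins off them, whereas CIP/KIP proteins bind whole cyclin-CDK complexes and block CDK2. Circulating monocytes are largely non-dividing cells that descend from dividing bone marrow progenitors.

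From BM to SC monocytes, Ccnd1, Ccnd2 and Cdkn1a were called higher, Ccnd3, Cdk2, Cdkn2c and Cdkn2d were called lower, and Cdk4, Cdk6 and Cdkn1b were not called. Among the 10072 active genes of that comparison 13.6% were called higher and 11.0% lower, against 3 and 4 of the 10 members. The median log2 fold change of the members was -0.38, and that of all active genes was -0.17. The summed TPM of the members was 852 in BM monocytes, 889 in SC monocytes and 711 in APCs.

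**Figure D1:**
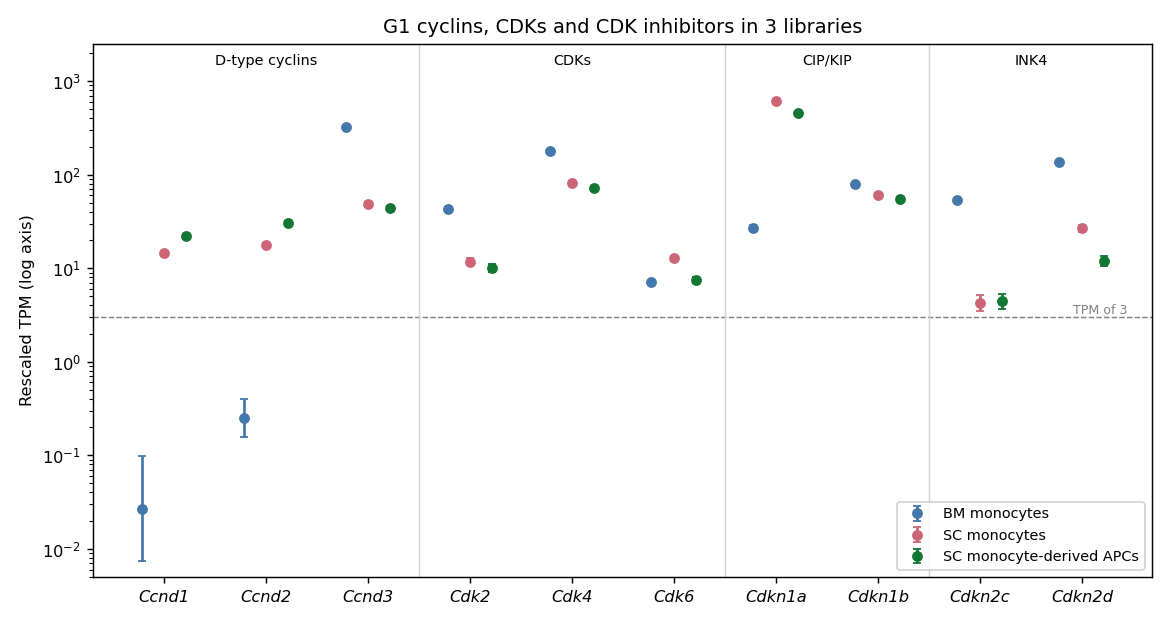
Rescaled TPM (log axis) of the 10 members in the 3 libraries, 1 point per library with its 95% Wilson interval for counting error. Ccnd1 and Ccnd2 sit below the dashed TPM of 3 in BM monocytes alone, and Cdkn1a is the highest member in both spinal cord libraries.

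Among D-type cyclins, BM monocytes held almost only Ccnd3, and both spinal cord populations held all 3. Ccnd1, the cyclin D1 gene (ENSMUSG00000070348.5, GRCm38 chr7:144929931-144939925, minus strand), had 2 reads in BM monocytes, 956 in SC monocytes and 1601 in APCs. These reads were TPM of 0.027, 14.4 (13.5 to 15.3) and 22.0 (21.0 to 23.1). The BM value was under the floor of 3 reads, which there equals a TPM of 0.040. The scaled ratio of SC to BM monocytes was 657, with an exact 95% counting interval of 181 to 5435. The overlapping gene on the opposite strand, LTO1, had 375, 241 and 271 reads.

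Ccnd2, the cyclin D2 gene (ENSMUSG00000000184.12, chr6:127125162-127152193, minus strand), had 17 reads in BM monocytes, 1715 in SC monocytes and 3159 in APCs. Its TPM was 0.249 (0.156 to 0.40), 17.9 (17.1 to 18.8) and 30.4 (29.3 to 31.4) in that order. The log2 fold change from BM to SC monocytes was 7.06 (98% interval 6.33 to 7.94). Divided by effective length, which was 3190 bases in BM and 4936 in SC monocytes, it was 6.33. Ccnd1 and Ccnd2 thus shared the order BM monocytes, SC monocytes, APCs, and no pair of their intervals overlapped.

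Ccnd3, the cyclin D3 gene (ENSMUSG00000034165.16, chr17:47505051-47599691, plus strand), ran the other way. Its TPM was 326 (319 to 332) in BM monocytes, 48.1 (45.7 to 50.6) in SC monocytes and 44.2 (41.8 to 46.7) in APCs, from 10664, 1477 and 1242 reads. Among the common genes it ranked 444 by TPM in BM monocytes, 2677 in SC monocytes and 2606 in APCs. From BM to SC monocytes it was 5.25-fold lower, with a log2 fold change of -2.39 (-2.49 to -2.30). The intervals of the spinal cord populations overlapped.

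The sum of the 3 cyclins was 326 TPM in BM monocytes, 80.4 in SC monocytes and 96.5 in APCs. Ccnd3 made up 99.92% of that sum in BM monocytes, 59.8% (95% interval 58.2 to 61.3) in SC monocytes and 45.7% (44.2 to 47.3) in APCs. In APCs Ccnd2 held 31.5% and Ccnd1 22.8%. Cyclin D3 was the leading D-type cyclin transcript in every library, with its smallest share in APCs.

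**Figure D2:**
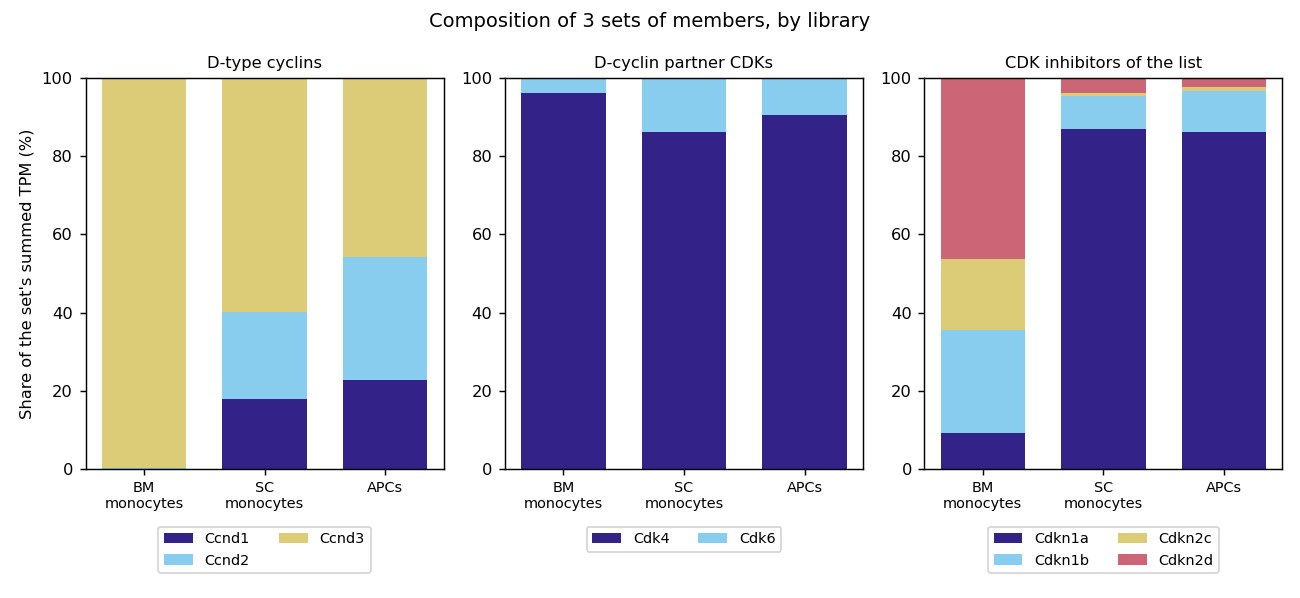
Share of each member in the summed TPM (%) of the D-type cyclins, of Cdk4 with Cdk6, and of the 4 CDK inhibitors, with 1 bar per library. The Ccnd3 segment shrinks from 99.92% in BM monocytes to 45.7% in APCs, and the Cdkn1a segment grows from 9.07% to 87.0% and 86.3%.

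Markers of other cells that use D-type cyclins also differed between the libraries. The T cell markers Cd3e, Cd3d, Cd3g, Cd4 and Cd8a summed to a TPM of 0.417 in BM monocytes, 29.0 in SC monocytes and 43.8 in APCs. In BM monocytes 0 of 5 exceeded a TPM of 3, with Cd3g and Cd4 at 0, and 4 of 5 did in each spinal cord library. The microglia markers Tmem119, P2ry12, Sall1, Siglech and Gpr34 summed to 12.8, 85.0 and 223, with 1 of 5 above a TPM of 3 in BM monocytes, where Sall1 was at 0, and 5 of 5 in both others. Spinal cord cells were sorted as CD11b+ CD64+, and the study describes its gate on high CD45 as leaving out microglia. The study also reports slightly raised Tmem119 and P2ry12 in its APCs, and allows that the APCs may hold a few microglia. The part of T cells or microglia in the levels of Ccnd1 and Ccnd2 was not tested.

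The kinases differed less than the cyclins, and Cdk2 alone was called. Cdk4 and Cdk6, the catalytic partners of D-type cyclins, kept a fixed order in every library, with Cdk4 above Cdk6. Cdk4 (ENSMUSG00000006728.12, chr10:127063534-127067920, plus strand) had a TPM of 179 (173 to 186) in BM monocytes, 80.7 (76.4 to 85.3) in SC monocytes and 72.7 (69.4 to 76.2) in APCs. The log2 fold change from BM to SC monocytes was -0.74 (-0.85 to -0.63), which did not reach the call. On TPM plus 1, with no interval, it was -1.14 and passed a 2-fold change. Tspan31 overlaps Cdk4 on the opposite strand and had 2756, 2253 and 2439 reads in the 3 libraries, and whether reads were counted by strand is not given in the sources used here.

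Cdk6 (ENSMUSG00000040274.11, chr5:3341485-3531008, plus strand) was the lowest kinase in BM monocytes and in APCs. It had a TPM of 7.14 (6.74 to 7.56) in BM monocytes, 12.8 (12.1 to 13.6) in SC monocytes and 7.50 (7.04 to 7.99) in APCs. Its reads were nearly level in the monocyte libraries, at 1161 and 1195, and its effective length was 7612 bases in the first and 4801 in the second. The log2 fold change was therefore 0.50 (0.36 to 0.64) on reads and 1.07 (0.93 to 1.21) on reads per effective length, and neither was called. Annotated Cdk6 transcripts run from 376 to 11525 bases, so the effective length depends on which of them a library's reads were assigned to. The ratio of Cdk4 to Cdk6 in TPM was 25.1 in BM monocytes, 6.28 in SC monocytes and 9.69 in APCs.

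Cdk2, the kinase that cyclins E and A activate (ENSMUSG00000025358.16, chr10:128697939-128705031, minus strand), had 1865 reads in BM monocytes, 487 in SC monocytes and 433 in APCs. Its TPM was 42.9 (41.0 to 44.9), 11.8 (10.8 to 12.8) and 10.02 (9.12 to 11.0). The BM value stood apart, and the intervals of both spinal cord values overlapped. From BM to SC monocytes Cdk2 was 2.78-fold lower, with a log2 fold change of -1.48 (-1.65 to -1.31).

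The promoters of Cdk2 and Cdk4 are shown because they hold words of well-known control elements. Of the 10 members, 8 matched an entry of the RefSeq promoter table (GRCm38.p6), with 11 promoters, and Ccnd1 and Ccnd2 had none. The 250 bases upstream of each start were searched on both strands. Capitals in the first sequence mark an E2F word, written as TTTCCCGC, TTTCGCGC, TTTGCCGC or TTTGGCGC or the reverse complement. Capitals in the second mark the E-box CACGTG, which MYC with MAX and the MXD proteins with MAX can bind. The E-box search, and that for p53 below, were added after the sequences had been seen.

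Cdk2 promoter, chr10:128705052-128705301, minus strand: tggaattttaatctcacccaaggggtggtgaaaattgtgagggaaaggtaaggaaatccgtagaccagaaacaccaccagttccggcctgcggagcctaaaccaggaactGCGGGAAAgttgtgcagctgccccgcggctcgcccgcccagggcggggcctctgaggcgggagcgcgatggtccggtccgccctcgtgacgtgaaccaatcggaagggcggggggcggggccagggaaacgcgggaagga

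Cdk4 promoter, chr10:127063285-127063534, plus strand: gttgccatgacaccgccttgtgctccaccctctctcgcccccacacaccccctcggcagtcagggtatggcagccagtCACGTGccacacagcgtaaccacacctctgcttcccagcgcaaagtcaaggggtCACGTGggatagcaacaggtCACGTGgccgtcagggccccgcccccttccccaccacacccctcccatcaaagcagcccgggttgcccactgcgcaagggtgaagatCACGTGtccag

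The Cdk2 promoter held 1 E2F word, which starts 140 bases before the transcript start, and it was the only one of the 11 promoters with such a word. Of 32851 mouse promoters of the same length 1.86% held one. The Cdk4 promoter held 4 E-boxes, at 172, 118, 98 and 11 bases before the start. It was 1 of 2 among the 11 promoters with an E-box, and the other, that of Cdk6, held 1 at 220 bases. At least 1 E-box was found in 6.02% of all promoters and at least 4 in 7 promoters. The words TTTGAA and TTCGAA of the cell cycle element CHR and the AP-1 words TGACTCA and TGAGTCA were in none of the 11 promoters, and were in 17.1% and 4.46% of all promoters. These are matches of letters and say nothing of binding in these cells.

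Among the inhibitors, Cdkn1a was the least abundant of the 4 in BM monocytes and the most abundant in both spinal cord populations. Cdkn1a encodes p21, an inhibitor of CDK2 complexes and a classic target of p53 (ENSMUSG00000023067.14, chr17:29090976-29100727, plus strand). It had 933 reads in BM monocytes, 19256 in SC monocytes and 15560 in APCs. Its TPM was 26.9 (25.3 to 28.7), 612 (603 to 621) and 452 (445 to 459), and no pair of intervals overlapped. Its rank by TPM was 4670 in BM monocytes, 280 in SC monocytes and 327 in APCs. The step from BM to SC monocytes was 28.4-fold, with a log2 fold change of 4.83 (4.71 to 4.94), and 4.73 per effective length. By absolute log2 fold change it ranked 368 of the 10072 active genes.

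The first RefSeq promoter of Cdkn1a is shown for its p53 half-sites, marked by capitals. The half-site consensus was found in 7.13% of the 32851 promoters.

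Cdkn1a promoter, chr17:29090729-29090978, plus strand: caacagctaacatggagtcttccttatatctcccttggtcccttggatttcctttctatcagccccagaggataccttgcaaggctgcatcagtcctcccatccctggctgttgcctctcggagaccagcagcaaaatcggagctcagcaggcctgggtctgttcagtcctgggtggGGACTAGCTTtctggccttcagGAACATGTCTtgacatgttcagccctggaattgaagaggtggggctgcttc

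The half-sites started 73 and 51 bases before the transcript start. The second promoter of Cdkn1a held none of the words searched, and Cdkn2d was the only other member whose promoter held a half-site.

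Cdkn1b, which encodes p27, the CIP/KIP inhibitor typical of resting cells (ENSMUSG00000003031.14, chr6:134920401-134925513, plus strand), differed least. Its TPM was 78.9 (76.4 to 81.4) in BM monocytes, 60.7 (58.5 to 63.0) in SC monocytes and 55.6 (53.6 to 57.7) in APCs. The log2 fold change from BM to SC monocytes was -0.02 (-0.10 to 0.06), and over the scalings tried it lay between -0.38 and 0.16 with no call. The ratio of Cdkn1a to Cdkn1b in TPM was 0.341 in BM monocytes, 10.1 in SC monocytes and 8.14 in APCs.

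Both INK4 genes were lower in the spinal cord. Cdkn2c, which encodes p18 (ENSMUSG00000028551.14, chr4:109660876-109667189, minus strand), had 1845 reads in BM monocytes, 110 in SC monocytes and 119 in APCs. Its TPM was 54.0 (51.6 to 56.6), 4.24 (3.52 to 5.12) and 4.42 (3.69 to 5.29), close to the threshold of 3 in both spinal cord libraries. The step from BM to SC monocytes was 12.1-fold lower, with a log2 fold change of -3.60 (-3.94 to -3.28).

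Cdkn2d, which encodes p19 of the INK4 family (ENSMUSG00000096472.2, chr9:21288410-21291407, minus strand), had 3144 reads in BM monocytes, 525 in SC monocytes and 260 in APCs. Its TPM was 137 (133 to 142), 26.6 (24.4 to 29.0) and 12.04 (10.7 to 13.6), with no overlap between libraries. It was 4.35-fold lower in SC than in BM monocytes, with a log2 fold change of -2.12 (-2.28 to -1.97).

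Summed by family, the CIP/KIP genes had a TPM of 106 in BM monocytes, 673 in SC monocytes and 508 in APCs, and the INK4 genes 191, 30.9 and 16.5. The CIP/KIP to INK4 ratio was 0.553, 21.8 and 30.8. Cdkn1a made up 9.07% of the 4 inhibitors in BM monocytes, 87.0% in SC monocytes and 86.3% in APCs. Cdkn2d was the leading inhibitor in BM monocytes, with 46.2%. The summed inhibitors were 0.912 times the summed D-type cyclins in BM monocytes, 8.75 times in SC monocytes and 5.43 times in APCs. Transcript ratios give no measure of protein or of complexes formed.

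**Figure D3:**
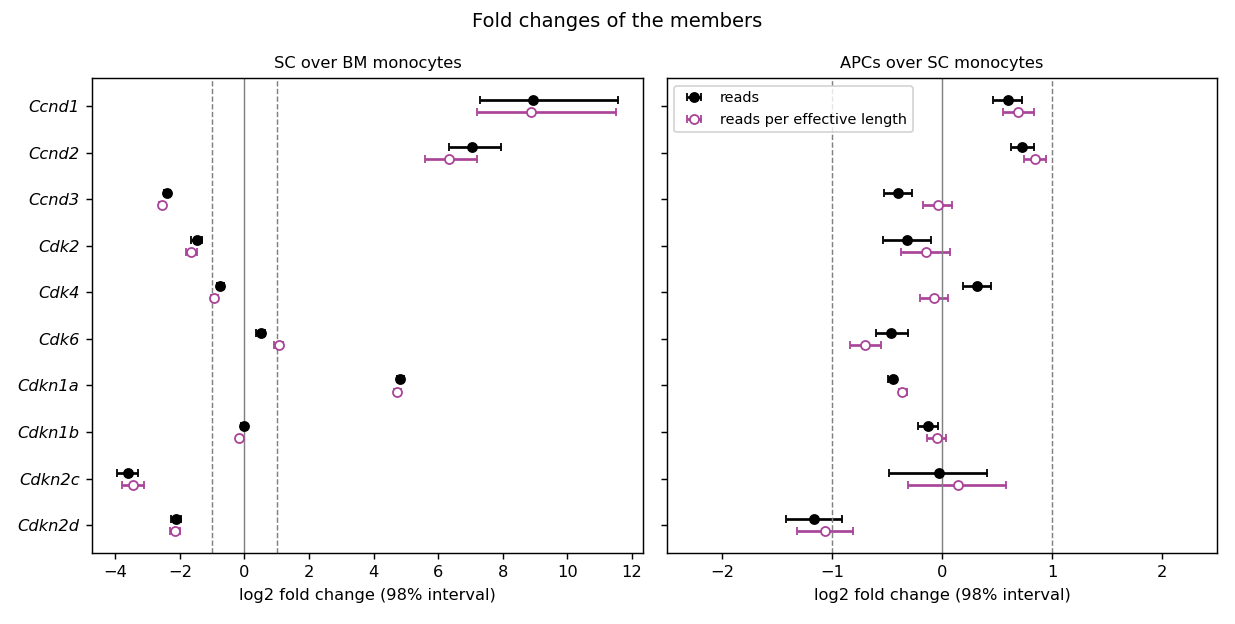
log2 fold changes of the 10 members with 98% counting intervals, on reads (filled) and on reads per effective length (open), for SC over BM monocytes and for APCs over SC monocytes, with the 2-fold change dashed. In the first panel 7 members lie wholly beyond the dashed lines, and in the second panel only the point of Cdkn2d passes one, with an interval that crosses it.

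From SC monocytes to APCs, which share the tissue and differ in Ly6C, 0 of the 10 members were called. Among the 9734 active genes 1.94% were called higher and 1.66% lower, so few calls were made in this step for any gene. The median log2 fold change of the members was -0.22, and that of all active genes was -0.03. On reads per effective length 0 members were called as well, beside 2.38% of active genes higher and 3.33% lower.

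Cdkn2d came nearest to a call, with a log2 fold change of -1.16 (-1.42 to -0.91), and its 26.6 and 12.04 TPM did not overlap. It passed a 2-fold change without an interval. The cyclins Ccnd2 (0.73, interval 0.63 to 0.83) and Ccnd1 (0.60, 0.46 to 0.73) had positive values, and Cdkn1a had -0.45 (-0.49 to -0.42). All 4 intervals excluded 0.

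For several members the value in this step depended on effective length. Ccnd3 had -0.40 (-0.53 to -0.27) on reads and -0.04 (-0.17 to 0.09) per effective length. Cdk4 had 0.32 (0.19 to 0.44) on reads and -0.07 (-0.20 to 0.05) per effective length, with effective lengths of 800 and 1139 bases. Cdkn2c had -0.03 (-0.48 to 0.41) on reads and 0.14 (-0.31 to 0.58) per effective length. APCs were quantified on a different set of transcripts, whose part in these lengths was not tested. Cdk2 had -0.32 (-0.54 to -0.10) on reads and -0.15 (-0.37 to 0.07) per effective length, and Cdkn1b had -0.13 (-0.22 to -0.04) and -0.05 (-0.14 to 0.04), so that both intervals included 0 only per effective length. Cdk6 had -0.46 (-0.60 to -0.31) on reads and -0.70 (-0.84 to -0.55) per effective length.

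APCs were also set against BM monocytes, a comparison that shares a library with each of the others. Ccnd1 (ratio 1005, exact 95% interval 278 to 8303), Ccnd2 (log2 fold change 7.81) and Cdkn1a (4.39) were called higher. Ccnd3 (-2.77), Cdk2 (-1.78), Cdkn2c (-3.62) and Cdkn2d (-3.26) were called lower, and Cdk4 (-0.41), Cdk6 (0.06) and Cdkn1b (-0.14) were not called. Per effective length Cdk4 had -0.96 (-1.07 to -0.86) and Cdk6 had 0.41 (0.26 to 0.55), again with no call. Over the alternatives tried Cdk4 lay between -1.3 and -0.23 and was called in 2 of 13. Of the 10190 active genes 14.0% were called higher and 11.7% lower.

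**Figure D4:**
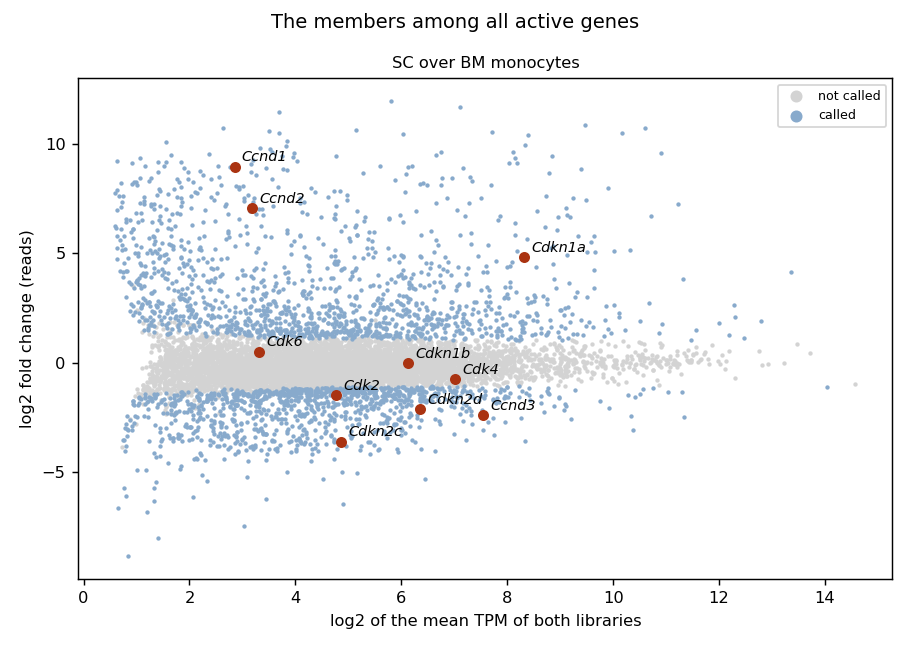
log2 fold change from BM to SC monocytes against log2 of the mean TPM of both libraries for the 10072 active genes, called genes in blue, and the 10 members in red. Ccnd1, Ccnd2 and Cdkn1a lie in the upper blue cloud, Ccnd3, Cdk2, Cdkn2c and Cdkn2d in the lower one, and Cdk4, Cdk6 and Cdkn1b in the grey band.

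The rest of the G1 pathway was read from fixed gene lists. The other inhibitors were not active in any library: Cdkn1c, which encodes p57, had 38, 19 and 26 reads in BM monocytes, SC monocytes and APCs. Cdkn2a, the tumour suppressor locus that encodes p16 and ARF, had 0, 8 and 9 reads, and Cdkn2b had 0, 5 and 4. Of 0 reads no more can be said than that up to 3 are allowed.

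All 7 active genes of the list of E-type and later cyclins and Cdk1 were called lower in SC than in BM monocytes, with a median log2 fold change of -3.69 against -0.17 over all active genes. Ccna2, the S phase cyclin, had a TPM of 81.8 in BM monocytes, 3.77 in SC monocytes and 4.77 in APCs. In the first step its log2 fold change was -4.16 (-4.41 to -3.91). Ccne2, a cyclin of CDK2, had 31.3, 1.12 and 1.36, with -4.03 (-4.51 to -3.60). Cdk1, the mitotic kinase, had 86.0, 7.56 and 7.13, with -3.09 (-3.42 to -2.77), and Ccnb2, a mitotic cyclin, had -4.00.

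Of the 13 active genes of the RB and E2F family, 8 were called lower and 0 higher in that step, with a median of -1.51. E2f7 and E2f8, which are only some of the E2F factors that repress transcription, had log2 fold changes of -4.36 (-5.04 to -3.76) and -3.58 (-3.82 to -3.35). E2f2, an activator, had a TPM of 118 in BM monocytes, 11.5 in SC monocytes and 4.85 in APCs. Tfdp1, a DNA-binding partner of most E2F proteins, had 90.6, 27.8 and 31.1.

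Among the kinases and phosphatases that switch CDKs on and off, 5 of 8 active genes were called lower and 0 higher. The CDK-activating kinase itself, Cdk7 with its cyclin Ccnh, was not called, at -0.45 (-0.66 to -0.23) and -0.44 (-0.64 to -0.25). The inhibitory kinase gene Pkmyt1 had -2.80 and the phosphatase gene Cdc25b had -1.75. Cdc25c had -2.68 on reads and -0.55, with no call, per effective length.

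Genes for the ubiquitin ligases that remove cyclins and inhibitors moved less, with 3 of 11 called lower, 0 higher and a median of -0.23. Skp2 and Cks1b, which together mark p27 for destruction, were 2 of the 3, at -2.0 (-2.43 to -1.60) and -2.47 (-2.77 to -2.19). Fbxo31 was the third, at -1.37 on reads and -1.17, with no call, per effective length. The core subunits Skp1a and Rbx1 had -0.26 and -0.09 and were not called.

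MYC is known to raise the transcription of Ccnd2 and Cdk4, and MXD proteins compete with it for MAX. Of 10 active genes of the MYC, MXD and FOXO list 2 were called higher and 2 lower, with a median of 0.35, against 13.6% higher and 11.0% lower of all active genes, so the count is near the background. Myc had a TPM of 6.77 in BM monocytes, 31.2 in SC monocytes and 36.9 in APCs, and its log2 fold change was 2.51 (2.28 to 2.75). Mxd1, its antagonist, had 12.9, 207 and 110, with 4.26 (4.16 to 4.36). Mxd3 had -5.19 (-6.60 to -4.11), and Max had 0.15 and was not called.

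In the p53 pathway 6 of 13 active genes were called higher and 1 lower, with a median of 0.73. Of all active genes 13.6% were called higher and 11.0% lower. The kinase gene Plk2 had a TPM of 9.38 in BM monocytes, 309 in SC monocytes and 182 in APCs, and its log2 fold change was 5.93 (5.75 to 6.13). Gadd45a, a stress response gene, had 41.3, 322 and 168, with 3.31. Mdm2, which encodes the ubiquitin ligase of p53, had 40.1, 259 and 85.2, with 2.58, and the antiproliferative gene Btg2 had 107, 336 and 245, with 1.96. Cdkn1a and these 4 genes were all higher in SC than in BM monocytes, but the 4 were named for a high level or a large change. Trp53inp1, the gene called lower, had a TPM of 23.3, 8.14 and 6.97. Trp53 (63.5, 39.2 and 41.6), Ccng1 (55.7, 32.3 and 45.5), Sesn1 and Aen also had a lower TPM in SC than in BM monocytes, without a call. The part of p53 in the level of Cdkn1a was not tested.

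**Figure D5:**
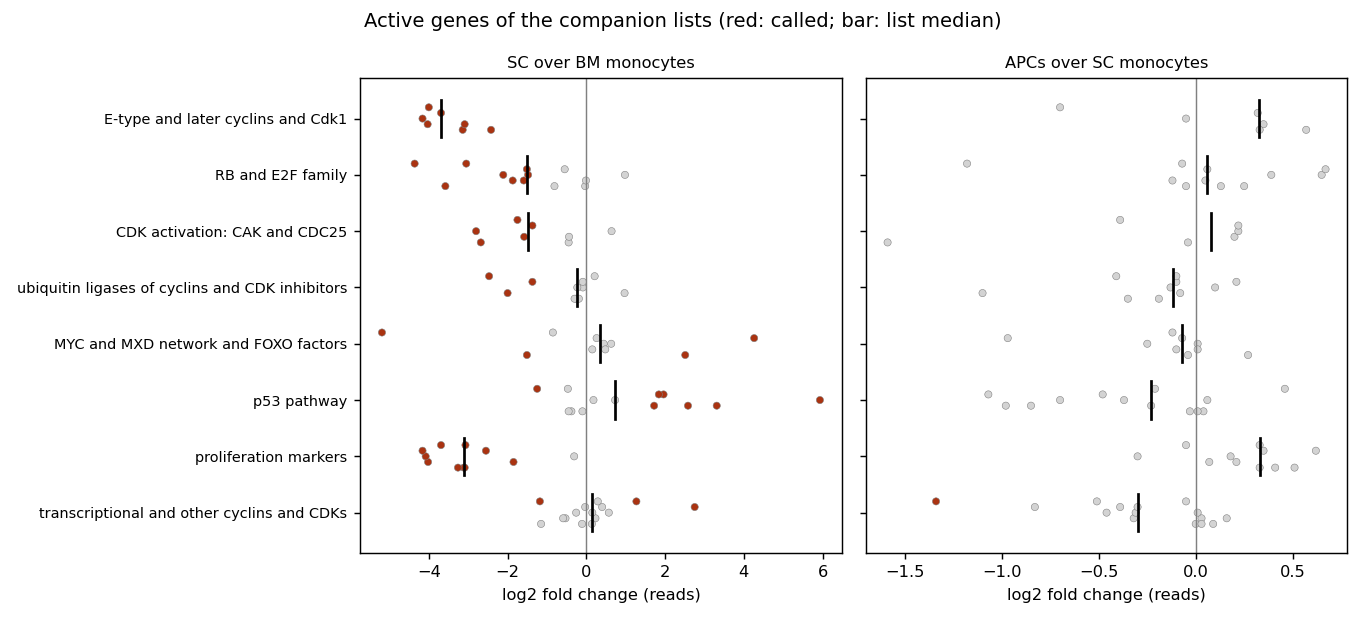
log2 fold changes of the active genes of 8 companion lists, 1 point per gene, called genes in red and the list median as a bar, for SC over BM monocytes and for APCs over SC monocytes. In the first panel all 7 genes of the later cyclins and Cdk1 lie left of 0, and in the second panel 1 gene, Ccnl2, is called on reads.

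The proliferation markers followed the later cyclins. From BM to SC monocytes 10 of 11 were called lower and 0 higher, with a median of -3.11, and their summed TPM was 1210 in BM monocytes, 267 in SC monocytes and 231 in APCs. Top2a and Rrm2 had -4.02 and -4.08, and Pcna, which also serves DNA repair, had -0.31 and was not called. The markers share Ccna2, Ccnb1 and Cdk1 with the list of later cyclins. From SC monocytes to APCs no gene of these lists was called on reads except Ccnl2 of the transcriptional cyclins. Per effective length Ccnl2 lost its call. On that scale 1 gene was called lower in each of the lists of later cyclins, CDK activation and the p53 pathway.

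Markers of granulocyte progenitors differed in the same step, whereas those of neutrophils and of stem and progenitor cells were mixed. The granulocyte progenitor markers Elane, Mpo, Prtn3, Ctsg and Ms4a3 summed to a TPM of 651 in BM monocytes, with 5 of 5 above 3. They summed to 64.9 in SC monocytes and 23.2 in APCs, with 2 and 1 of 5 above 3, and all 5 were called lower in SC than in BM monocytes. The neutrophil markers Ly6g, Ltf, Camp, Ngp and Retnlg summed to 289, 58.8 and 267, with 3, 4 and 4 of 5 above 3, and the stem and progenitor markers Cd34, Kit and Flt3 to 41.1, 17.8 and 49.3, with 2, 2 and 3 of 3 above 3. Of the 4 active neutrophil markers 3 were called lower and Retnlg higher (1.77, 16.7 and 57.9 TPM), and the lower progenitor sum of SC monocytes came from Flt3 (37.8, 3.65 and 6.65 TPM), since Cd34 was called higher (3.03, 12.5 and 35.7) and Kit had 0.208, 1.70 and 6.92. No granulocyte, neutrophil or progenitor marker was at 0 reads. Their part in the values of Ccnd3, Cdk2, Cdkn2c and Cdkn2d was not tested.

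The companion genes whose levels ran most like each member were found by the Euclidean distance between log2(TPM + 1) profiles over the 3 libraries, each centred on its mean, among 85 active companion genes. With 3 points a profile, this is a description. Cdkn2c lay nearest to Cdk1 (distance 0.087) and the mitotic gene Birc5 (0.127), and Ccnd3 to Mcm5 (0.250) and Tyms (0.251), genes of DNA replication and nucleotide synthesis. Cdkn1a lay nearest to Plk2 (0.325) and Mxd1 (0.723). Ccnd1 and Ccnd2 had the same neighbours at larger distances of 0.984 to 1.34. Plk2 and Mxd1 had a lower TPM in APCs than in SC monocytes, whereas Ccnd1 and Ccnd2 had a higher one.

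Cdk4 lay nearest to Fbxo31 (0.036) and Foxo4 (0.182), and Cdk2 to Mxd4 (0.165) and Skp2 (0.213). The nearest genes of Cdk6 were Ccnt1 (0.135) and Ccnl2 (0.161), cyclins of transcription and splicing, and those of Cdkn1b were Cdk13 (0.077) and Ccnk (0.101). Cdkn2d lay nearest to Ccnf (0.278) and E2f8 (0.760).

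A spread between libraries could not be measured, and an assumed one was tried. With a coefficient of variation of 0.2 added, Cdk2 lost its call from BM to SC monocytes, and with 0.4 Ccnd3 and Cdkn2d lost theirs too, whereas Ccnd1, Ccnd2, Cdkn1a and Cdkn2c kept theirs. Bone marrow and spinal cord libraries also differed in tissue, in how cells were prepared, in the CD64 and CD11c gates and in the mice pooled. Spinal cords were digested with collagenase and DNase and run on a Percoll gradient, whereas bone marrow was flushed and enriched for monocytes with a kit. None of these differences can be told apart from the population, and their part in the values was not tested.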

How the data were processed

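RNA-Seq libraries of 3 sorted populations were quantified by the authors with Salmon 0.14.1 on GENCODE vM22 (mm10), and the transcripts of each gene were pooled. The authors deposited TPM, normalized for effective length and library size, and estimated counts of reads, which are not normalized. The monocyte values cover 54432 genes and those of APCs 22242, from another transcript set. TPM was rescaled over the 22238 common genes, 99.92% of which have a symbol in GENCODE vM21. Expected counts, as deposited, were rounded, and 2 libraries were compared by median-of-ratios size factors and a gamma posterior of reads plus 1, with percentiles 1 and 99, after the GFold definition in the study's methods, computed anew. A gene was called beyond a 2-fold change if its TPM exceeded 3 in either library. With 1 library per population no test was possible. This scaling put the median of active genes at a log2 fold change of -0.167 from bone marrow (BM) to spinal cord (SC) monocytes, -0.027 from SC monocytes to APCs and -0.172 from BM monocytes to APCs. The scripts were tested on simulated data. The members and gene lists were chosen with earlier results of these data known. Named companion genes were the 2 of highest mean TPM and the 3 called genes of largest change in each step of each list, with the 2 nearest profiles of each member. Cdkn2b and the p53 pathway genes Trp53inp1, Trp53, Ccng1, Sesn1 and Aen were named outside this rule, after their values were seen. The alternatives were other size factors, thresholds, added reads, TPM scales and an assumed spread. Python 3.11.15, numpy 2.4.6, pandas 2.3.3 and scipy 1.17.1 were used, with edgeR 4.0.16 in R 4.3.3 for TMM factors only.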

Additional observations from a re-analysis of the deposited data

Results flagged for a closer look

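Signal appeared in 3 genes that overlap members on the opposite strand and that the comparisons did not use, because the APC values do not list them. The antisense gene 9330179D12Rik, opposite Ccnd2, had 6 reads in SC monocytes and 0 in BM monocytes. The antisense gene Gm42435, opposite Cdk6, had 15 reads in SC monocytes and 0 in BM monocytes. AC167363.2, opposite Cdkn1a, had 12 reads in SC monocytes and 3 in BM monocytes. The strand of the reads is not stated, and the overlaps were taken from whole gene spans, not from exons. Whether any of these reads were shared with the members was not tested.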

How the results depend on the processing

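No paired analysis was possible because each population was 1 library, and leaving out a replicate was not possible for the same reason. No fold change of a called member changed sign under any alternative. Size factors over active genes were added after the data were examined and changed no count of members.

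With no TPM threshold, 2591 genes were called higher from BM to SC monocytes, 389 higher and 288 lower from SC monocytes to APCs, and 2875 higher from BM monocytes to APCs. With an assumed coefficient of variation of 0.2, these comparisons gave 905 higher and 460 lower, 87 higher and 35 lower, and 503 lower. With 0.4 they gave 627 higher and 228 lower, 43 higher and 14 lower, and 727 higher and 230 lower, and the members called lower came to 1 from BM to SC monocytes and 2 from BM monocytes to APCs. On TPM plus 1 the genes called lower were 1890, 528 and 2433, and on TPM plus 0.1 they were 2137, 617 and 2682, with 351 higher from SC monocytes to APCs. In that step reads per effective length gave 324 lower, a plain 2-fold change gave 331 higher and 293 lower, and 1 member, Cdkn2d, was called lower by the plain change and on both TPM scales. The summed TPM of the members as deposited was 724 in BM and 759 in SC monocytes. The TPM scales and the plain change have no interval, and the assumed spread widens it. The cause of the other differences was not tested.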

Other observations

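Cyclins and CDKs of transcription and splicing, together with other cyclins and CDKs outside the lists above, were read as a list of 15, all active. From BM to SC monocytes 2 were called higher and 1 lower, with a median log2 fold change of 0.14 against -0.17 over all active genes, of which 13.6% were called higher and 11.0% lower. The count is near that background. Ccnl1, a cyclin of splicing, had a TPM of 108 in BM monocytes, 593 in SC monocytes and 315 in APCs. In that step its log2 fold change was 2.75 (2.69 to 2.81). Ccnl2 had 37.0, 72.8 and 38.4, with 1.27 (1.18 to 1.37). From SC monocytes to APCs Ccnl2 had -1.34 (-1.44 to -1.23) on reads and -0.84, with no call, per effective length. Cdk19, of the Mediator kinase module, had -1.18 (-1.28 to -1.08) from BM to SC monocytes. Cdk9, the kinase that releases paused RNA polymerase, had 120, 124 and 97.6 TPM and was not called in either step.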
